A study of Rattus norvegicus with 9 samples.

Results

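The vascular endothelial growth factor (VEGF) system was examined in rat lung through 10 genes, the ligand genes Vegfa, Vegfb, Vegfc, Vegfd and Pgf, the receptor kinase genes Flt1, Kdr and Flt4, and the neuropilin co-receptor genes Nrp1 and Nrp2. They were chosen by name, as the family's ligands and receptors, and are 10 of the 14497 genes that the array's annotation names by a single symbol. Each was measured by 1 of 28826 probes, and Vegfd is listed on the array under its older symbol Figf.

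The samples were lungs of 7 Wistar rats, 3 with metabolic syndrome (MetS) and 4 controls, measured on Affymetrix arrays. MetS was induced from weaning by giving a 30% sucrose solution as the sole drink for 24 weeks, whereas controls drank plain water. Both groups ate the same standard chow without restriction, fasted for 7 hours and were killed by decapitation. MetS rat 1 and control rat 1 were each measured on 2 arrays, which were averaged so that n counts animals. No genetic change is given for either group, the MetS rats are labelled male, and the labels give no sex for the controls. The labels give no further separation of the animals by litter or cage, and metabolic values of the rats were not analysed here.

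VEGF ligands are secreted dimers that bind receptor tyrosine kinases on endothelial cells. VEGF-A, the product of Vegfa, drives the growth and permeability of blood vessels mainly through VEGFR2, the product of Kdr, whereas VEGFR1, the product of Flt1, binds VEGF-A tightly, signals weakly and also exists as a soluble trap. Among these kinases, VEGF-B and placental growth factor (PlGF, from Pgf) bind VEGFR1 only. VEGF-C and VEGF-D act mainly on VEGFR3, the product of Flt4, in lymphatic vessels. In lung, the alveolar epithelium is a main source of VEGF-A and the capillary endothelium carries VEGFR2.

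The array values are on the log2 scale, so that a difference of 1 is a doubling of signal, and a level of one probe cannot be set against that of another. Means over the animals lay above 6.48, the 25th percentile of all probe means, for all 10 genes. The median value of an array lay between 7.64 and 7.69 on all 9 arrays. The arrays were less alike in spread: over all probes the SD was 1.93, 1.90 and 1.88 in the MetS rats, against 1.85, 1.77, 1.76 and 1.88 in controls. All MetS rats had a wider spread than controls 1, 2 and 3. A fit with this spread as a covariate, used below, therefore cannot tell it fully apart from the group. The tissue label was checked with 5 lung tissue markers, all of them measured, whose mean was 12.86 to 12.94 in MetS lungs and 12.88 to 12.90 in control lungs. In bulk tissue, fewer cells of a type and less RNA per cell cannot be told apart.

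Vegfd was the member with the widest difference between the groups, and it was lower in MetS lung. Its level was 7.84, 7.87 and 7.37 in the 3 MetS rats, against 8.17, 8.32, 8.76 and 8.55 in the 4 controls. All 3 MetS values lay under all 4 control values, with 0.30 between the highest MetS rat and the lowest control. The mean was 7.69 ± 0.28 in MetS and 8.45 ± 0.26 in controls (SD, n = 3 and n = 4), a log2 difference of -0.76 with a standard error of 0.18. As a ratio, the MetS level was 0.592 of the control level, with a 95% interval of 0.443 to 0.791. The limma test gave an unadjusted p of 0.00351 and an adjusted p of 0.324 over all 28826 probes, so that the difference did not pass the threshold of 0.05. An exact two-sided permutation test gave p = 0.0571, the smallest that 3 against 4 animals allow (35 splits).

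No probe on the array passed that threshold in limma, the smallest adjusted p being 0.324, and the share of all probes called was therefore 0%. At an unadjusted limma p under 0.05, Vegfd and Pgf were called, 2 of the 10 members, against 13.7% of all probes (9.91% lower and 3.82% higher in MetS). The groups did not overlap for the same 2 members, Vegfd lower and Pgf higher in MetS, against 11.7% of all probes. Of all probes, 6.84% did not overlap with MetS lower and 4.88% with MetS higher. These shares put the member count near the background. A smaller p than that of Vegfd was reached by 0.548% of all probes, and 3.71% of all probes had a difference as far below 0. Across the 10 members, 7 differences were above 0 and 3 below. Their median was 0.03, against 0.01 over all probes and 0.04 over all named probes.

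**Figure D1:**
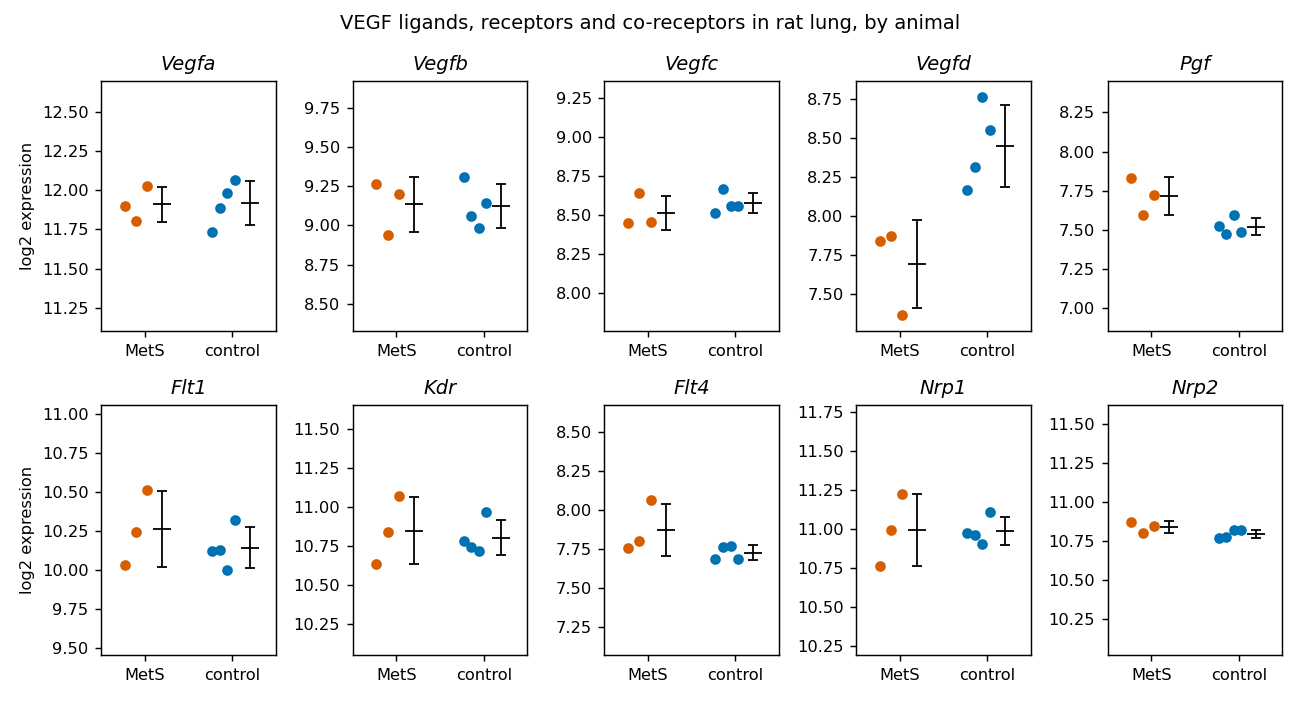
Log2 expression (vertical axes, of equal length in log2 units but placed differently in each panel) of the 10 VEGF genes, with the 3 MetS rats left of the 4 control rats; points are animals and bars are the group mean with SD. The Vegfd values of 7.37 to 7.87 in MetS rats lie under the 8.17 to 8.76 of the controls, and the groups overlap in 8 of the 10 panels.

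The promoter windows of the genes that the values turn on are shown next, namely Vegfd and Pgf, whose groups did not overlap, and Flt1, Kdr and Nrp1, whose levels moved together across animals as described further on. Each holds the 250 bases before the annotated start of the gene, from RefSeq on assembly GRCr8, read 5′ to 3′ on the gene's strand. All 10 members had a window, 11 windows in all because Vegfa has 2. Capitals mark matches to any of 6 motifs, searched on both strands: AP-1 (TGANTCA), the CRE core (TGACG), Sp1 (GGGCGG), the hypoxia core (ACGTG or GCGTG), the E-box (CACGTG) and EGR (GCGNGGGCG). The E-box contains the hypoxia core ACGTG, and EGR matches can overlap Sp1 matches. The Vegfd window lies at chrX:33739893-33740142 on the minus strand, Pgf at chr6:110557748-110557997 on the minus strand, Flt1 at chr12:12333180-12333429 on the plus strand, Kdr at chr14:32571813-32572062 on the plus strand and Nrp1 at chr19:73256307-73256556 on the plus strand.
Vegfd: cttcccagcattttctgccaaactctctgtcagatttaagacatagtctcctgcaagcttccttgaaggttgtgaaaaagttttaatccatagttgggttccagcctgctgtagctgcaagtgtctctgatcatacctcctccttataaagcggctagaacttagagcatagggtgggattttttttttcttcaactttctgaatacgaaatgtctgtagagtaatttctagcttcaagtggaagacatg
Pgf: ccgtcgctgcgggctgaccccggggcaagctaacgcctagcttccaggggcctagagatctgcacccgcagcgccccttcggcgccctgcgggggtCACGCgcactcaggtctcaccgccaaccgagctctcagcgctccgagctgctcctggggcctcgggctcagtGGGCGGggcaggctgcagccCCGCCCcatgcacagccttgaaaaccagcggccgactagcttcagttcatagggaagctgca
Flt1: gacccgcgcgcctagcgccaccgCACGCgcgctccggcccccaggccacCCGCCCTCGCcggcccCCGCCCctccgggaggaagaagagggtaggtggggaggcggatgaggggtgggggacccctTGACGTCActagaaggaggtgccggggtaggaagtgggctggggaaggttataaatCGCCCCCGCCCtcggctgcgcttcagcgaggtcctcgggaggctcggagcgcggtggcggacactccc
Kdr: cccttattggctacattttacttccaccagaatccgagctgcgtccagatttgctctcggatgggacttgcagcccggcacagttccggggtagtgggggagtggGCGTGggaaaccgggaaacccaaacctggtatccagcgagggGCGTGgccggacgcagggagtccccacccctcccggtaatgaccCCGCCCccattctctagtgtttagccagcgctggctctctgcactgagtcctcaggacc
Nrp1: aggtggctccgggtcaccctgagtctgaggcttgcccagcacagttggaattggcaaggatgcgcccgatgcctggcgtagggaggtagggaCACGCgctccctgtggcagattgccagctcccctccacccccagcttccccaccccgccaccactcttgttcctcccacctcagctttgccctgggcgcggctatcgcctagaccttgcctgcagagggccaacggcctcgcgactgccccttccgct

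The Vegfd window held no match to any of the 6 motifs, as did 40.5% of all 33469 promoters of the table, and its GC content was 40.8%, against a median of 51.2% over all promoters. The Pgf window held 3 matches, the Flt1 window 8, the Kdr window 3 and the Nrp1 window 1. A hypoxia core stood in 6 of the 10 members (Vegfb, Pgf, Flt1, Kdr, Nrp1 and Nrp2), against 36.7% of all promoters. Sp1 stood in 7 members, against 30.5% of promoters, and EGR in Vegfb and Flt1, against 4.29%. The CRE core stood in Flt1 alone, against 18.2%, whereas AP-1 (6.34% of promoters) and the E-box (5.59%) stood in none. The windows of all other members lay above the median GC content, from 52.8% in Nrp2 to 76% in Flt4. The shares over all promoters are not matched for GC content, so the counts do not show an excess in this family. These are matches of letters in a short window and do not show binding.

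VEGF-D binds VEGFR3, and its mouse gene was first described as one induced by the transcription factor Fos, from which the older symbol derives. The Vegfd difference kept its sign under all 19 alternative settings, between -0.85 and -0.59. It was -0.59 without MetS rat 3, the animal with the lowest value, and -0.75 with the spread of each animal's array as a covariate. The 2 arrays of MetS rat 1 differed by 0.11 for Vegfd and those of control rat 1 by 0.03, both under the gap of 0.30 between the groups. Among the 7 animals, its SD of 0.47 was wider than that of 94.0% of the probes with 1 symbol.

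Of the cell types that could carry Vegfd, lung fibroblasts had 11 of 12 markers measured, of which 7 lay above and 4 below the control mean. The mean of the fibroblast list was 8.95 to 9.02 in MetS lungs and 8.89 to 8.999 in control lungs. The fibroblast transcription factor Tcf21 averaged 9.60 in MetS and 9.34 in controls, a difference of 0.27 with a limma adjusted p of 0.324. The methyltransferase gene Inmt of the same list, named after its values were seen, went the other way, at 9.92, 10.14 and 9.96 in MetS against 10.19, 10.05, 10.42 and 10.48 in controls. Its groups overlapped, and its difference of -0.28 had a 95% interval of -0.56 to -0.0019 and a limma adjusted p of 0.362. Set relative to the fibroblast mean, Vegfd stood at -0.62, -0.66 and -1.14 in MetS rats, against -0.34, -0.14, 0.36 and 0.11 in controls, a difference of -0.80 with no overlap. Relative to the 4 measured of 6 mesothelial markers the difference was also -0.80. Those values only just separated, with -0.51 in MetS rat 2 against -0.48 in control 1. Relative to the 10 smooth muscle and pericyte markers the difference was -0.95, again without overlap. As Vegfd alone did not overlap, these comparisons largely repeat its own difference and are no further evidence. The part of these cell types in the Vegfd values was not tested.

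Other marker lists differed in their mean levels too, with overlap between the groups. Smooth muscle and pericyte markers were above the control mean for 9 of 10 genes, with a median difference of 0.21, and their mean was 8.75 to 9.20 in MetS against 8.61 to 8.93 in controls. The red cell list lay above the control mean for all 4 of its 7 genes that were measured, with a mean of 11.04 to 11.48 in MetS against 10.58 to 11.23 in controls. Among them the beta globin gene Hbb differed by 0.29 and the haem synthesis gene Alas2 by 0.63, with limma adjusted p-values of 0.330 and 0.356. Over the 19 alternatives Hbb ran from 0.11 to 0.36 and Alas2 from 0.11 to 0.84. Their unadjusted p was 0.05 or above in 6 and 8 of these. Heart muscle markers averaged 8.82 in MetS rat 1 and 9.81 in control rat 1, against 7.33 to 7.49 in the other MetS rats and 7.03 to 7.19 in the other controls. Actc1, Tnni3, Tnnt2 and Myh6 carried this, whereas Myl7 and Nppa in these rats lay within or under the range of the other animals. With MetS rat 1 alone left out the Vegfd difference was -0.83. With control rat 1 alone left out it was -0.85, so that the other of these rats stayed in each fit. Neutrophil markers lay above the control mean for 5 of 6 genes, with a list mean of 9.14 to 9.64 in MetS against 8.95 to 9.46 in controls. Airway secretory and ciliated markers had 5 of 6 genes measured, 3 above and 2 below the control mean, with a list mean of 10.02 to 10.35 in MetS against 10.01 to 10.68 in controls. Among them the secretoglobin gene Scgb3a1 was 10.35, 10.29 and 9.90 in MetS rats, against 11.70, 12.47, 11.44 and 10.27 in controls. Its groups overlapped through control 4, and its difference was -1.29 with a limma adjusted p of 0.330, or -0.53 with the spread of each array as a covariate. The part of smooth muscle, red cells, heart muscle, neutrophils and airway cells in the Vegfd values was not tested.

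Vegfd is on the X chromosome, and the labels leave the sex of the controls unstated. Of the 7 Y-linked genes listed, 1 could be named on the array, the testis-determining gene Sry, at 7.46 to 7.51 in MetS against 7.61 to 8.03 in controls. A part of sex in the Vegfd difference was not tested.

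VEGF-C, the closest relative of VEGF-D and the main lymphatic growth factor, showed no separation of the groups. Vegfc was 8.45, 8.64 and 8.45 in MetS rats, against 8.51, 8.66, 8.56 and 8.56 in controls. The groups overlapped, and the difference of -0.06 had a 95% interval of -0.23 to 0.11 and a limma adjusted p of 0.712. The difference of Vegfd minus Vegfc, relative to its control mean, was -0.48, -0.65 and -0.96 in MetS, against -0.22, -0.22, 0.33 and 0.12 in controls. These log ratios did not overlap either, which largely repeats the separation of Vegfd alone.

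Flt4, which encodes the receptor of both, was 7.76, 7.80 and 8.06 in MetS rats, against 7.69, 7.76, 7.77 and 7.69 in controls. The lowest MetS rat lay just under the highest control, and MetS rat 3 stood well above the others. The mean was 7.87 ± 0.16 in MetS and 7.73 ± 0.05 in controls (SD, n = 3 and n = 4), a difference of 0.15 with an interval of -0.05 to 0.35 and a limma adjusted p of 0.462. Without MetS rat 3 the difference was 0.05. With the spread of each array as a covariate it was 0.27, with an unadjusted limma p of 0.0464 and an adjusted p of 0.999. In the other 18 alternatives the unadjusted p of Flt4 was 0.05 or above. The difference of Vegfd minus Flt4 was -0.90 in MetS relative to controls, without overlap, which again largely repeats that of Vegfd alone.

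Lymphatic endothelial markers had 4 of 7 measured genes above the control mean and 3 below, the median difference being 0.0046. Their mean was 9.17 to 9.24 in MetS lungs and 9.16 to 9.28 in control lungs. The lymphatic regulator Prox1 had a signal of 6.05, 6.26 and 6.04 in MetS rats against 6.39, 6.04, 6.14 and 6.26 in controls, under the 25th percentile of probe means in all 7 animals. Of 9 genes that process VEGF-C and VEGF-D, 8 were measured, 4 above and 4 below the control mean, with a median of 0.00088, and none passed the test. The proprotein convertase gene Pcsk7 did not overlap, with a difference of 0.14 that was -0.0080 when the spread of each array was a covariate.

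Pgf, whose product binds VEGFR1 and is known from placenta and from vessels under stress, was the one ligand whose MetS values all lay above the controls. It was 7.83, 7.59 and 7.72 in MetS rats, against 7.52, 7.47, 7.59 and 7.49 in controls. MetS rat 2 and control 3 were at almost the same level, with 0.000836 between them. The mean was 7.72 ± 0.12 in MetS and 7.52 ± 0.05 in controls (SD, n = 3 and n = 4), a difference of 0.20 with a 95% interval of 0.02 to 0.37. The limma test gave an unadjusted p of 0.0309 and an adjusted p of 0.339, and the exact permutation test again gave its minimum of 0.0571. Leaving out 1 animal at a time moved the difference between 0.14 and 0.26. The unadjusted p of Pgf was 0.05 or above in 8 of the 19 alternative settings, up to 0.114 without MetS rat 1, whereas that of Vegfd was under 0.05 in all 19.

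Vegfa, the principal ligand, was 11.90, 11.81 and 12.03 in MetS rats, against 11.74, 11.89, 11.98 and 12.06 in controls. The control values spanned all 3 MetS values. Its mean was 11.91 ± 0.11 in MetS and 11.92 ± 0.14 in controls (SD, n = 3 and n = 4). The ratio of MetS to control was 0.996 with a 95% interval of 0.852 to 1.16, and the limma adjusted p was 0.982. Vegfb, whose product binds VEGFR1 and is best known from heart and fat metabolism, was 9.27, 8.94 and 9.20 in MetS, against 9.31, 9.06, 8.98 and 9.14 in controls. The groups overlapped over nearly the whole range, with a difference of 0.01 and an interval of -0.25 to 0.27.

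The genes that sense oxygen upstream of Vegfa were all 9 measured, 8 of them above the control mean and 1 below, with a median difference of 0.11. None passed the adjusted test, and with the spread of each array as a covariate the median was -0.06. Hif3a, which encodes a hypoxia-inducible factor subunit that can restrain the others, was 7.50, 7.31 and 7.39 in MetS rats, against 7.13, 7.04, 7.09 and 7.16 in controls. The groups did not overlap, and the difference of 0.29 had an unadjusted limma p of 0.00324 and an adjusted p of 0.324. The prolyl hydroxylase gene Egln2 differed by 0.21 and the HIF partner gene Arnt by 0.11, with overlap in both, and by 0.05 and 0.04 with that covariate.

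The receptor genes Flt1, Kdr and Nrp1 varied together from animal to animal and did not separate MetS from control. Flt1 was 10.03, 10.25 and 10.51 in MetS rats, against 10.12, 10.13, 10.002 and 10.32 in controls. Kdr was 10.64, 10.84 and 11.07 in MetS rats, against 10.78, 10.75, 10.71 and 10.97 in controls. Nrp1, which encodes a co-receptor of VEGF-A and of class 3 semaphorins, was 10.76, 10.99 and 11.22 in MetS, against 10.98, 10.96, 10.90 and 11.11 in controls. In all 3 genes MetS rat 3 was the highest animal, control 4 the next and MetS rat 2 the third. For Kdr and Nrp1 the order of all 7 animals was identical, ending with MetS rat 1 as the lowest.

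The differences of these genes were small against that spread. They were 0.12 with a 95% interval of -0.18 to 0.42 for Flt1, 0.05 with -0.22 to 0.31 for Kdr and 0.0063 with -0.26 to 0.27 for Nrp1. The limma adjusted p was 0.664 for Flt1, 0.856 for Kdr and 0.983 for Nrp1, and without MetS rat 3 the differences were -0.0056, -0.06 and -0.11 in the same order. Nrp2, which encodes the neuropilin that also binds VEGF-C and VEGF-D, was 10.87, 10.80 and 10.85 in MetS, against 10.77, 10.78, 10.82 and 10.82 in controls. It varied little, with an SD of 0.04 over the 7 animals, and its difference was 0.05 with an interval of -0.08 to 0.17. Among the 8 members whose groups overlapped, no interval reached beyond 0.42 in either direction.

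**Figure D2:**
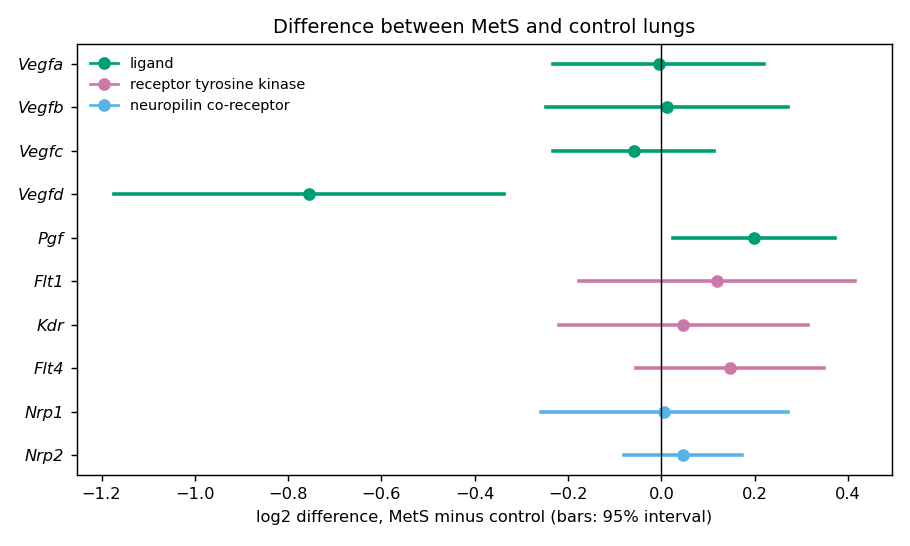
Log2 difference, MetS minus control, of the 10 VEGF genes (points, coloured by role) with 95% intervals from the limma fit (bars); the vertical line marks no difference. The Vegfd interval of -1.17 to -0.34 and the Pgf interval of 0.02 to 0.37 do not cross 0, before any adjustment for the number of probes.

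**Figure D3:**
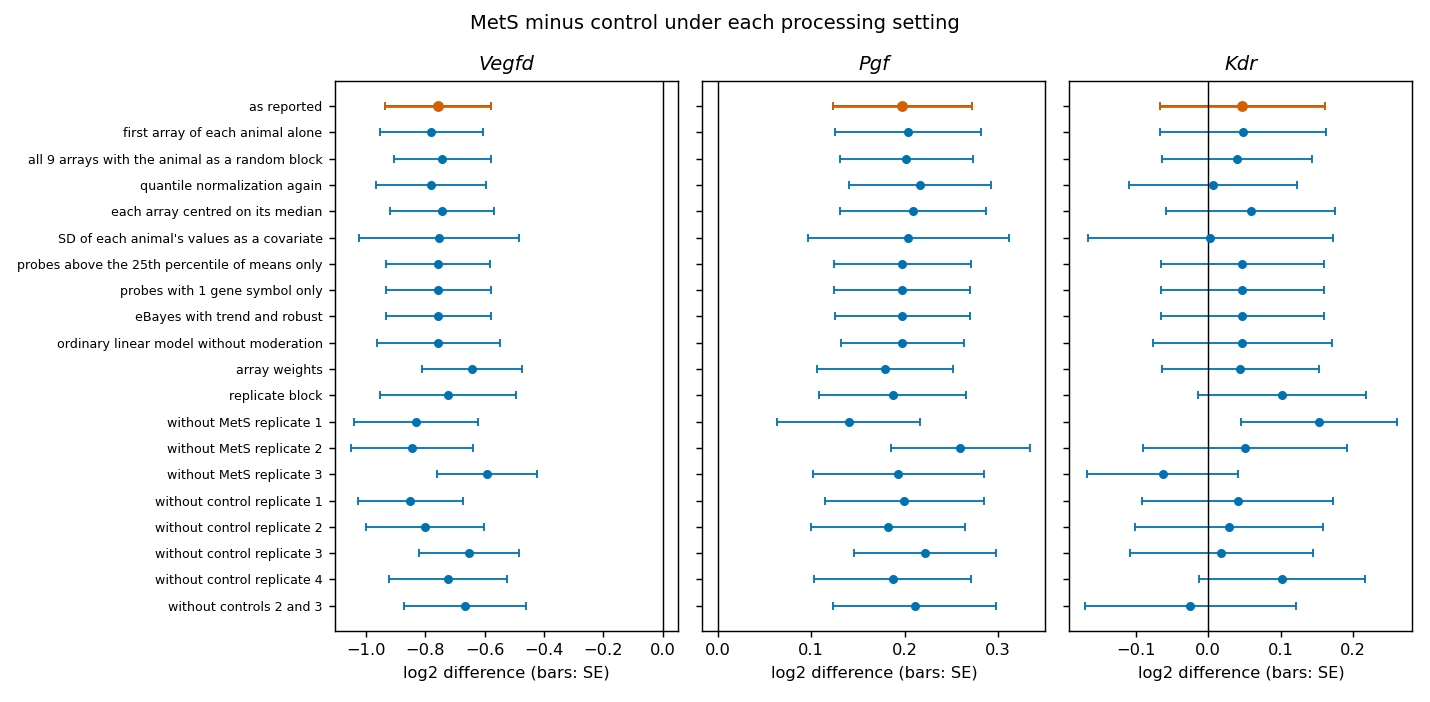
Log2 difference, MetS minus control, of Vegfd, Pgf and Kdr as reported (top) and under 19 other settings, with standard errors as bars; each panel has its own horizontal scale. Vegfd stays between -0.85 and -0.59 and Pgf between 0.14 and 0.26, whereas Kdr runs from -0.06 to 0.15.

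The likeness of these patterns was measured as the root mean square (RMS) difference between 2 probes, each centred on its own mean over the 7 animals, so that 0 is an identical pattern. Kdr and Nrp1 were each other's nearest of 15208 probes with 1 symbol, with an RMS difference of 0.03, against a median of 0.18 for each. Seen from Flt1, Kdr ranked 4 of 15208 with 0.05 and Nrp1 ranked 18 with 0.06. Seen from Kdr, Flt1 ranked 8, and seen from Nrp1 it ranked 24. Flt4 ranked 831 from Flt1, and Vegfd ranked 14443. The RMS difference is not scaled by spread, so the wide SD of Vegfd sets it far from most probes. Its median RMS difference over the ranked probes was 0.47. The probes share the arrays and their normalization, so these ranks describe these 7 animals only.

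Among genes outside the family, the nearest to Flt1 were the transcription factor genes Zeb2 and Tcf4, each with an RMS difference of 0.04. The nearest to Kdr outside the family were Tcf4 and the ankyrin gene Ank2, and those to Nrp1 were the methionine cycle gene Mat2a and Ubash3a. For Vegfd the nearest were Serpinb6b, a serpin family gene, with 0.15, and the dimmer of 2 probes of the splicing gene Rbm39, with 0.19. Serpinb6b averaged 8.72 ± 0.18 in MetS and 9.30 ± 0.19 in controls (SD, n = 3 and n = 4), a difference of -0.58. As it was picked for its likeness to Vegfd over these same animals, its lower MetS level follows largely from that choice and is no further evidence. The dimmer Rbm39 probe differed by -0.45 whereas the brighter one differed by 0.18, so that the 2 probes of this gene disagreed.

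The mean of the general endothelial markers was set beside the patterns of the receptor genes. Of 16 listed, 15 were measured, 11 above and 4 below the control mean, and their mean relative to controls was -0.17, 0.17 and 0.18 in the MetS rats, against -0.09, 0.02, -0.07 and 0.15 in controls. MetS rat 1 was the lowest animal in this mean, as it was in Kdr and Nrp1. It was also the lowest in the means of the lung general capillary markers, at -0.20, and of the lymphocyte markers, at -0.34. The RMS difference from the endothelial mean was 0.07 for Kdr and for Nrp1, 0.09 for Flt1, 0.13 for Flt4 and 0.14 for Nrp2. For Vegfd it was 0.49, near the median of 0.47 that Vegfd had over the ranked probes. The value of Flt4 was near its own SD of 0.13 over the 7 animals, and that of Nrp2 was above its SD of 0.04. Neither therefore shows a likeness to the endothelial mean. Other marker lists were not compared in this way. After the endothelial mean was subtracted, a comparison added after seeing the data, the differences of MetS minus control were 0.06 for Flt1, -0.01 for Kdr, 0.09 for Flt4, -0.05 for Nrp1 and -0.01 for Nrp2. The groups overlapped for all 5. Within the marker list, the endothelial transcription factor Erg differed by 0.25 and the adrenomedullin receptor gene Calcrl by 0.16, with limma adjusted p-values of 0.330 and 0.405.

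**Figure D4:**
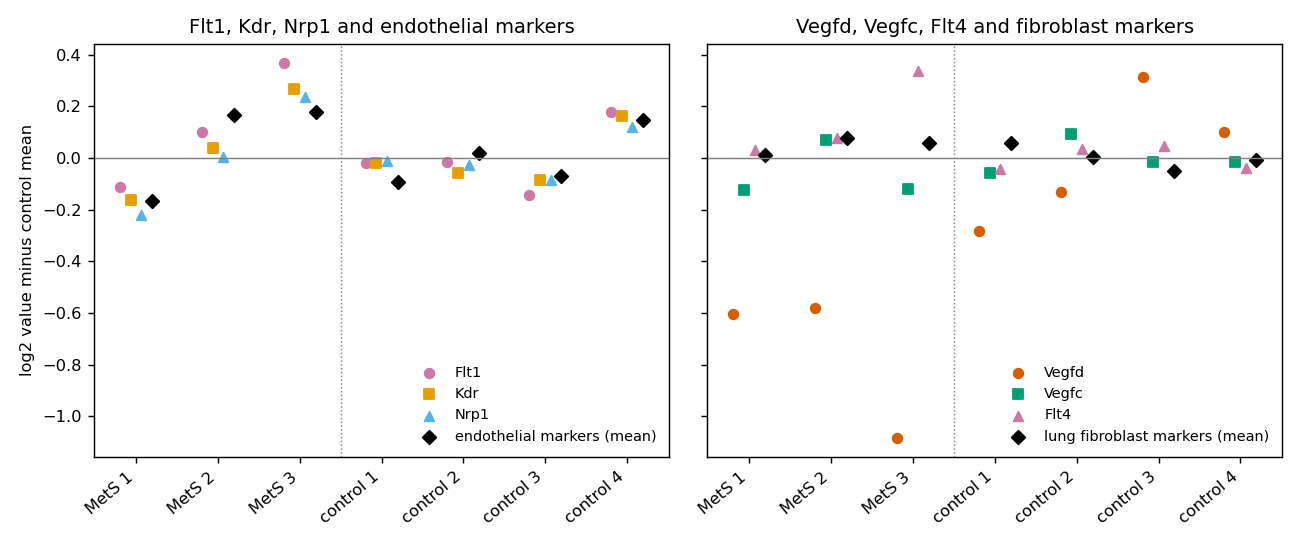
Log2 values minus the control mean in each of the 3 MetS rats and, to their right, the 4 control rats, for Flt1, Kdr, Nrp1 and the mean of 15 endothelial markers (left panel) and for Vegfd, Vegfc, Flt4 and the mean of 11 fibroblast markers (right panel). Flt1, Kdr and Nrp1 peak in MetS rat 3, at 0.37, 0.27 and 0.24, the animal in which Vegfd is lowest, at -1.08.

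The balance of the trap receptor and the signalling receptor was taken as Flt1 minus Kdr. Relative to its control mean it was 0.05, 0.06 and 0.10 in MetS rats, against 0.0012, 0.04, -0.06 and 0.01 in controls. The MetS values lay above all controls, with a difference of 0.07. The separation was narrow, with 0.051 in MetS rat 1 against 0.042 in control 2. Between the 2 arrays of MetS rat 1 the balance differed by 0.015, more than this separation. Between those of control rat 1 it differed by 0.0019. The soluble form of VEGFR1 was not measured apart from the receptor. This difference of log levels was not put through the fit and has no p-value. Vegfa minus Kdr differed by -0.05 with overlap.

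Around the receptors, 8 pathway lists of 89 measured genes were counted, and none of their genes passed the adjusted test. Above the control mean lay 59 and below it 30, with a median of 0.04, against 0.04 over all named probes. At an unadjusted p under 0.05 there were 3 (3.37%), 1 higher and 2 lower, and the groups did not overlap for 9 (10.1%), both shares under those of all probes.

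Of 30 listed genes of VEGF receptor signalling, 24 were measured, 21 above the control mean and 3 below, with a median of 0.10. With the spread of each array as a covariate that median was 0.02. The adaptor gene Nck2 differed by 0.19, the Src family kinase gene Yes1 by 0.23 and the focal adhesion kinase gene Ptk2 by 0.24, with limma adjusted p-values of 0.367, 0.389 and 0.394. With the same covariate these differences were 0.05, 0.08 and 0.08. Of 12 class 3 semaphorins and their plexin receptors, which share the neuropilins with VEGF, 9 were measured, 6 above and 3 below the control mean. The plexin gene Plxna2 differed by 0.23, with control 3 far under the other controls, and by 0.11 without that animal. With the spread of each array as a covariate it was 0.01.

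The angiopoietins and Tie receptors, which stabilise vessels beside VEGF, had 5 of 7 genes measured, 4 above the control mean and 1 below. The Tie2 ligand gene Angpt1 differed by 0.23 with overlap. All 7 genes of the related PDGF family were measured, 2 above the control mean and 5 below, with a median of -0.02.

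All 20 genes that VEGF-A is known to induce in cultured endothelial cells were measured, 10 above and 10 below the control mean, with a median of 0.00080. They include the coagulation gene F3, with a difference of 0.45 and overlap. That value was 0.25 without MetS rat 1, its highest animal, 0.26 without control 3, its lowest, and 0.04 with the spread of each array as a covariate. The list also holds the immediate early gene Egr1. Egr1 was 8.65, 8.65 and 8.89 in MetS rats, against 9.87, 9.21, 9.32 and 9.90 in controls. All MetS values lay under all control values, and the difference of -0.85 had an unadjusted limma p of 0.00292 and an adjusted p of 0.324.

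Egr1 also belongs to the list of AP-1 and immediate early factors, which was counted because of the described induction of Vegfd by Fos. Of its 12 genes 11 were measured, 4 above and 7 below the control mean, with a median of -0.05, and -0.14 with the spread of each array as a covariate. Fos was 8.34, 8.11 and 8.94 in MetS rats, against 9.37, 9.11, 7.90 and 9.25 in controls. Its groups overlapped through control 3, and its difference was -0.44 with a limma adjusted p of 0.592. Over the 19 alternatives the Fos difference ran from -0.94 to -0.26. A part of Fos in the Vegfd values was not tested. The AP-1 gene Junb averaged 9.13 ± 0.12 in MetS and 9.40 ± 0.16 in controls (SD, n = 3 and n = 4) and did not overlap, with an adjusted p of 0.340 by limma and an unadjusted p that was 0.05 or above in 6 of the 19 alternatives. Jun differed by 0.11 with overlap, and by -0.12 without MetS rat 3.

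**Figure D5:**
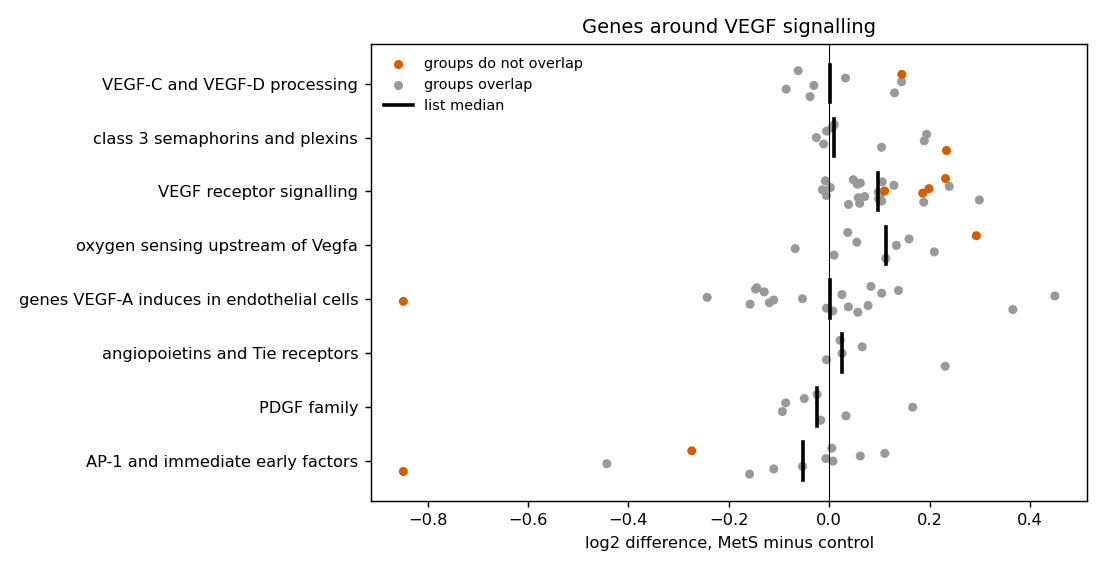
Log2 difference, MetS minus control, of each measured gene (points) in 8 pathway lists, with the list median as a black bar; orange points are genes whose groups do not overlap. Egr1, which stands in the last list and in that of VEGF-A-induced genes, is the point farthest below 0, at -0.85, and the list medians run from -0.05 to 0.11.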

How the data were processed

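Per the labels' protocols, lung RNA was isolated with Trizol, had to reach an RNA integrity number of 6, and was hybridised as biotinylated cRNA to 9 arrays. The deposited log2 expression values of 28826 probes were used as the authors made them. The submitters' processing notes list R 2.11.0, RMA and limma without saying what each did; the build of the files is not given. Array files hold no read depth, and the number of animals limits the precision.

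Probe names came from the platform annotation, with symbols updated through RefSeq (15209 probes with 1 symbol, 306 with several, 13311 with none). The brightest probe stood for a gene. MetS minus control was fitted over 7 animals in limma 3.58.1 (lmFit, eBayes; R 4.3.3). P-values were Benjamini-Hochberg adjusted across the 28826 probes, and 0.05 was the threshold. Exact permutation tests used scipy 1.17.1. Data were simulated with 200 changed probes among 28826 and with noise drawn independently for each probe. There the fit for MetS minus control found 35.6% of log2 changes of 0.5, 76.7% of those of 1 and 95.2% of those of 2. Shared effects of an animal or an array were not simulated, so these rates may not hold for the real data. Nothing states that animals came from separate litters, so p-values measure the spread between these samples.

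The members, lists and tests were chosen with earlier results of these data known. The text names all 10 members, up to 3 genes of each pathway list and up to 2 of each marker list by smallest p, the 2 most alike probes of members that vary more than the median probe, and Egr1, Fos, Jun and the Y-linked genes whatever their value; of these, not every gene is described. Promoters were read from a RefSeq table on GRCr8, and Python 3.11.15, numpy 2.4.6, pandas 2.3.3 and matplotlib 3.10.9 were used for tables and figures. The alternatives covered single or blocked arrays, normalization, filters, moderation, weights, the replicate number and each animal left out.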

Additional observations from a re-analysis of the deposited data

Results flagged for a closer look

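The plexin gene Plxna2 had 1 control animal far from the others. Control 3 was at 10.68, against 11.14 to 11.17 in the other 3 controls, while the MetS rats were at 11.36, 11.17 and 11.28. The Plxna2 difference of 0.23 between MetS and controls was 0.11 without control 3. Of 35 genes whose controls were checked this way, 1 stood apart, and chance alone marks about 1 in 20 such groups.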

How the results depend on the processing

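No probe passed the adjusted threshold in 18 of the 19 alternatives. With the replicate number as a block (replicate block), 2017 probes passed, none of them a VEGF member. This setting also left out control 4, which has no MetS rat of the same number. Without control 4 and without the block, no probe passed, and the smallest limma adjusted p was 0.052. Deviations of same-numbered animals correlated at 0.27, -0.12 and 0.34, and MetS rat 2 was most like control 4, so the numbers were not taken to pair the animals. Vegfd, Pgf, Vegfc, Flt4 and Nrp2 kept their sign in all 19. Members with a difference near 0 changed sign. Vegfa was 0.0055 with arrays centred on their median, 0.0034 with array spread (SD) as a covariate, 0.023 with array weights, 0.043 with the replicate block and 0.012 without controls 2 and 3. Vegfb was -0.054 after renewed quantile normalization, -0.13 with the SD covariate, -0.084 with array weights and -0.091 without controls 2 and 3. Kdr was -0.025 without controls 2 and 3. Nrp1 was -0.0019 with all 9 arrays, -0.021 after quantile normalization, -0.0014 with the SD covariate and -0.049 without controls 2 and 3. Pcsk7 was -0.0080 with the SD covariate.

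Leaving out 1 animal at a time gave -0.067 to 0.046 for Vegfa, -0.054 to 0.11 for Vegfb, -0.0056 to 0.24 for Flt1, -0.063 to 0.15 for Kdr, -0.11 to 0.12 for Nrp1 and -0.12 to 0.29 for Jun. List medians then ran from -0.011 to 0.061 for VEGF-C and VEGF-D processing, 0.031 to 0.12 for semaphorins and plexins, -0.012 to 0.13 for angiopoietins and -0.12 to -0.0013 for AP-1 factors. With the SD covariate the medians were 0.017 for receptor signalling, -0.057 for oxygen sensing and -0.14 for AP-1 factors. The cause of these shifts was not tested. The SD covariate partly follows the group, and with it the standard error of the Vegfd difference was 0.27, against 0.18 without it. The use of a second probe per gene could not be run, since each member has 1 probe. The set of 3 and 4 animals cannot give an exact p under 0.0571.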

Other observations

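The patterns of the ligand genes Pgf and Vegfb across the 7 animals had their nearest neighbours outside the vascular lists. For Pgf these were the zinc finger gene Plagl2 and Ccdc183, each with an RMS difference of 0.04. For Vegfb they were the sodium-dependent vitamin transporter gene Slc5a6, with 0.05, and Fam234a, with 0.05. The fibroblast list held Slc7a10, an amino acid transporter gene, with a difference of 0.20 and a limma adjusted p of 0.330. Of all probes, 40.9% had exactly the same value on at least 2 arrays.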
